A study of Mus musculus with 8 samples.

Results

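The 26S proteasome is the protease that degrades ubiquitin-tagged proteins in the cytosol and nucleus. Its 20S core is a barrel of alpha and beta rings in which Psmb5, Psmb6 and Psmb7 encode the constitutive catalytic subunits, and its 19S particle recognises, unfolds and feeds in substrates through a base of ATPases and a lid. PA28 activators, PA200 and the PI31 protein bind the core as well, and dedicated chaperones assemble the particles. In macrophages, interferon signalling is known to replace the catalytic subunits by the immunoproteasome forms Psmb8, Psmb9 and Psmb10, and the transcription factor Nrf1 (gene Nfe2l1) is known to raise proteasome genes when degradation falls short.

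The constitutive proteasome genes were taken as every gene whose symbol starts with Psma, Psmb, Psmc, Psmd, Psme, Psmf or Psmg and a digit, without Psmb8, Psmb9, Psmb10 and pseudogenes. This rule found 46 of the 23366 genes of the table, and 45 of them passed the filter on low values, which asked for a level of at least 1 in 2 or more libraries. The exception was Psmb11, the thymus form of Psmb5, which was listed at 0 in 7 libraries and at 0.05 in an untreated wild-type library. By role the members were 8 alpha and 8 beta ring genes, 6 ATPases, 3 other genes of the 19S base, 8 genes of the lid, 4 activators, 1 inhibitor and 7 assembly chaperones. Psmc3ip, a cofactor of meiotic recombination, was matched by its name alone and is no proteasome gene.

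The RNA-seq libraries were made from macrophages grown out of bone marrow of C57BL/6 background at passage 1, either wild type or Lsd1SA/SA knock-in, a genotype in which the histone demethylase LSD1 is described as phosphorylation-defective. The protocol gives serum starvation for 24 h and then LPS, the bacterial cell wall component that activates Toll-like receptor 4, at 1 mg/ml for 2 h; controls are labelled untreated. Each of the 4 groups (untreated wild type, wild type with LPS, untreated knock-in, knock-in with LPS) had 2 libraries, and nothing says that they came from separate animals or cultures, so each p-value reflects library-to-library spread alone, which may be technical. Levels are the normalized values of the deposited table (CPM computed with a normalization factor), at 40379258 to 55595160 reads a library.

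The pair of libraries labelled knock-in with LPS stood apart from the other 6. Their Xist levels were 0.366 and 0.212 against 315 to 437 elsewhere, and reads of Eif2s3y, Uty and Kdm5d were found in no other library, so these cells were male and the others female. Tnf, a textbook LPS target looked up after its values were seen, was at 4039 and 3915 in wild type with LPS but at 48.7 and 48.5 in the libraries labelled knock-in with LPS, against 26.4 to 27.4 without LPS. Nfkbia was likewise at 1402 and 1446 in the former and at 66.6 and 68.4 in the latter, with 51.0 to 61.8 in the untreated libraries. Kdm1a, the gene of LSD1, was at 31.1 to 33.9 untreated, 45.8 and 47.3 in wild type with LPS and 39.3 and 40.4 in the libraries labelled knock-in with LPS; its level does not check a genotype that alters the protein. In every comparison with these libraries, sex, animal and label cannot be told apart. The summed level of the macrophage markers was high throughout (8 of 8 genes in the table, 11900 to 17084), with Lyz2 alone at 6010 to 8980. Single markers moved within that sum. Fcgr1 was at 927 and 898 in the libraries labelled knock-in with LPS and at 255 to 288 elsewhere. Cd14 was at 67.3 and 65.1 there, 126 to 136 untreated and 1348 and 1421 in wild type with LPS. Summed over 6 stromal markers, the level was 54.3 to 54.4 in the libraries labelled knock-in with LPS and 13.0 to 17.1 in the others, while 4 dendritic cell markers summed to 4.73 to 5.27 against 35.8 to 50.1. Most of the dendritic cell sum was Itgax, at 4.65 and 4.04 against 33.9 to 47.1, and Flt3 and Zbtb46 did not pass the filter. The 4 mast cell and basophil markers summed to 76.6 to 78.6 against 30.8 to 48.6, and the 6 B and T cell markers to 45.6 to 49.1 against 75.2 to 80.6. The markers of a list did not all move together. Against wild type with LPS, 2 macrophage markers were called higher and 6 lower. In the same comparison 4 stromal markers were called higher and 1 lower, and 3 mast cell and basophil markers higher and 1 lower. Of the 3 B and T cell markers tested, 1 was higher and 2 were lower. Of all tested genes 38.5% were called higher and 36.8% lower there. The 7 neutrophil markers summed to 747 to 767 in wild type with LPS, 447 to 457 in the libraries labelled knock-in with LPS and 351 to 359 without LPS. The part of these markers in the results was not tested, and in such bulk samples fewer cells of a type and less RNA per cell cannot be told apart.

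In untreated wild-type macrophages the proteasome genes were well covered: 39 of 46 were at 20 or more in every library. Means ran from 2.20 for Psma8, the testis form of Psma7, to 249 for Psmd8, a lid subunit gene, with a median of 77.2 over the tested members. Replicates lay close together, with a median coefficient of variation of 2.92% over members and groups; the widest pair was that of the chaperone gene Psmg3 in the untreated knock-in, at 32.2%. Divided by exon length (from another genome build than the one used for counting, so approximate), the 14 standard 20S core genes spanned 30.3 to 183 per kilobase, a 6.05-fold range, although the core holds equal numbers of each. Psmb6 was the highest and Psmb1 the lowest of them. The length joined all exons of a gene's protein-coding transcripts (3427 bases for Psmb1, 798 for Psmb6), so it can exceed that of the transcripts present. Undivided, Psmb1 was at 104, and the 14 genes ran from 50.5 (Psma5) to 146 (Psmb6). Ranks and range per kilobase thus depend on this length. Per kilobase, the 17 genes of the 19S particle spanned 16.1 (Psmd11) to 113 (Psmd8), and the 7 assembly chaperones 6.27 (Psmd5) to 20.4 (Psmg4). The chaperones, which act before a particle is complete, thus had a lower median level per kilobase (8.94) than the 20S (68.3) and 19S (48.8) genes.

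Promoter windows, from 250 bases before to 50 bases after the start of a gene, were matched for 38 of the 46 members (RefSeq, GRCm38.p6). The pieces below are shown because they carry the short motifs through which interferon-regulated factors and Nrf1 or Nrf2 are known to bind DNA, written 5′ to 3′ on the gene's strand, with the match in capitals. A match to the interferon-stimulated response element, searched as GAAA, any 2 bases and GAAA, is shown for 4 genes (in 3 of them the match is on the opposite strand, so the capitals show its reverse complement).
Psme1 promoter, chr14:55578487-55578516, plus strand: aggtttcgagctgtgcTTTCGCTTTCcctt
Psmb3 promoter, chr11:97703244-97703303, plus strand: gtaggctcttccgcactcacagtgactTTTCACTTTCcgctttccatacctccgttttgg
Psmd4 promoter, chr3:95042660-95042719, minus strand: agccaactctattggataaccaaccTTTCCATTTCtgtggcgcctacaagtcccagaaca
Psmd9 promoter, chr5:123228005-123228064, plus strand: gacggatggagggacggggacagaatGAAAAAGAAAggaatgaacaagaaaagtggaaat
A match to TGACNNNGC, the antioxidant response element, is shown for the 2 catalytic subunit genes that hold one.
Psmb5 promoter, chr14:54618006-54618065, minus strand: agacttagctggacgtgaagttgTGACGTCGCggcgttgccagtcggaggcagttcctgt
Psmb6 promoter, chr11:70525297-70525356, plus strand: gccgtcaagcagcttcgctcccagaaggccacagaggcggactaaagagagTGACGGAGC

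Searched on both strands, the interferon-stimulated response element occurred in 5 of 38 members (13.2%: the 4 shown and Psmg4) and in 3.99% of the 27025 genes with a window. TGACNNNGC occurred in 6 members (15.8%: Psmb5, Psmb6, Psmc6, Psmd9, Psmd12 and Psme4) against 14.0% of all genes. CCAAT, the box that nuclear factor Y is known to bind, occurred in 14 members (36.8%) against 41.1%, and TTCNNNGAA, the gamma-activated site of STAT factors, in Psmd2 and Psmg1 (5.26%) against 9.55%. The motifs do not contain one another, the choice of motifs was made with results known, and a match describes these letters in this window and no more.

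With LPS, wild-type macrophages had more RNA of most proteasome genes on the deposited scale. Of the 45 tested members 32 rose and 1 fell, where 26.8% of the 11919 tested genes rose and 30.7% fell, 57.6% in all (limma on log2(value + 1), 2-sided, Benjamini-Hochberg adjusted p under 0.05, as in every count of calls). The median log2 change was 0.19, against -0.032 over all tested genes, so a typical member was 1.14-fold higher. Of the 20S core genes 11 of 15 rose (median 0.19), of the 19S genes 16 of 17 (median 0.23), and of the activators 4 of 4 (median 0.15). Assembly chaperones differed among themselves: Psmd10 rose, Psmg3 fell and 5 were not called (median -0.051).

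Psme2, the beta subunit of the PA28 activator, had the largest increase. Its level was 84.7 and 71.9 in the untreated wild-type libraries and 141 and 158 with LPS, a log2 change of 0.93 ± 0.065 (SE), adjusted p = 7.51e-12. Both LPS libraries lay far above both controls; Psme2b, a near-identical copy of Psme2, was not analysed here, and reads of the copies could be shared. Its partner in the PA28 ring, Psme1, was at 167 and 177 untreated and 181 and 195 with LPS (0.13 ± 0.049 (SE), adjusted p = 0.0303), a small shift without overlap. The ratio of Psme1 to Psme2 thereby went from 1.97 and 2.46 to 1.28 and 1.23. Psme3, the nuclear PA28 gamma, went from 89.2 and 100.1 to 102 and 105 (0.13 ± 0.055 (SE), adjusted p = 0.0432), and Psme4, which encodes PA200, from 91.9 and 91.2 to 110.3 and 95.0 (0.16 ± 0.062 (SE), adjusted p = 0.0314). For both, the lower LPS library was only slightly above the higher control. With a library left out, the change of Psme1 ran from 0.077 to 0.18, lowest without the second LPS library, that of Psme3 from 0.050 (without the first untreated library) to 0.21, and that of Psme4 from 0.053 (without the first LPS library) to 0.27. The calls of Psme1, Psme3 and Psme4 were lost in 6, 12 and 6 of 20 alternatives.

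In the 20S core, Psmb6, the caspase-like subunit whose promoter is printed above, was at 143 and 149 untreated and 209.7 and 219 with LPS (0.55 ± 0.048 (SE), adjusted p = 5.88e-10). The trypsin-like subunit Psmb7 went from 73.2 and 63.3 to 93.6 and 89.6 (0.42 ± 0.061 (SE), adjusted p = 2.22e-06). The chymotrypsin-like Psmb5 moved least of the catalytic genes, from 67.9 and 55.9 to 69.2 and 72.4 (0.20 ± 0.069 (SE), adjusted p = 0.0167). Its LPS libraries lay just above the higher control, and its change was 0.059 without the second untreated library, 0.34 without the first and 0.17 without the second LPS library, with the call lost in the first and last of these. Exons of Psmb7 overlap those of Nek6 on the opposite strand by 405 bases, and Nek6 was at 47.8 and 50.3 untreated and 37.8 and 35.0 with LPS; whether the counting used strand is not given in the sources used here. Psma6, an alpha ring subunit, was at 87.9 and 86.8 untreated and 121 and 129.5 with LPS (0.51 ± 0.051 (SE), adjusted p = 4.66e-09). Psmb4, a noncatalytic beta subunit, went from 90.6 and 73.7 to 105 and 115 (0.42 ± 0.069 (SE), adjusted p = 1.25e-05), with controls that were far apart.

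Among the chaperones, Psmd10 (gankyrin, which holds a 19S ATPase during base assembly and lies on the X chromosome) was at 24.9 and 25.1 untreated and 38.9 and 39.4 with LPS (0.63 ± 0.067 (SE), adjusted p = 1.88e-08), with replicates that nearly coincided. Psmg3, an early chaperone of the alpha ring, was the only member that fell, from 9.02 and 7.17 to 4.82 and 6.29 (-0.47 ± 0.146 (SE), adjusted p = 0.0077). Its call was lost in 5 of 20 alternatives. These were DESeq2, quantile normalization, no filter, and the fits without the first untreated library (-0.33) and without the first LPS library (-0.31). It is a gene of low level whose exons share 237 bases with Gm26938 on the same strand. In the 19S particle the changes were narrow, from 0.092 for the ATPase Psmc1, which was not called (105 and 106 against 109 and 117), to 0.42 for the lid subunit Psmd11 (49.1 and 46.2 against 64.4 and 63.7). Their standard deviation over the 17 genes was 0.071, against 0.18 over the 15 core genes.

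The size and sign of the wild-type change depended on the scaling. LPS-treated wild-type libraries had normalization factors of 0.878 and 0.866, against 1.02 to 1.07 in the other 6. Without such factors, 4 members rose and 19 fell (median -0.10, all genes -0.30), where 13.7% of all tested genes rose and 64.4% fell. With quantile normalization 6 rose and 11 fell (median -0.023, all genes -0.086), where 21.3% and 38.9% of all tested genes did. Under both, a smaller share of the members than of all genes was called in either direction. Median-of-ratios scaling gave 36 and 1, against 30.1% and 27.8% of all genes. Relative to the median of all tested genes, the members' median was 0.22 higher on the deposited scale, 0.20 without factors, 0.23 with median-of-ratios scaling and 0.063 with quantile normalization. Under every alternative tried, the calls of Psma6, Psmb6, Psme2 and Psmd10 held, and 24 of the 32 members called higher changed sign in at least 1. Without the libraries labelled knock-in with LPS in the fit, 31 rose and 1 fell (26.8% and 30.5% of all genes), and without the second LPS library of wild type 20 rose (22.7% of all genes).

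**Figure D1:**
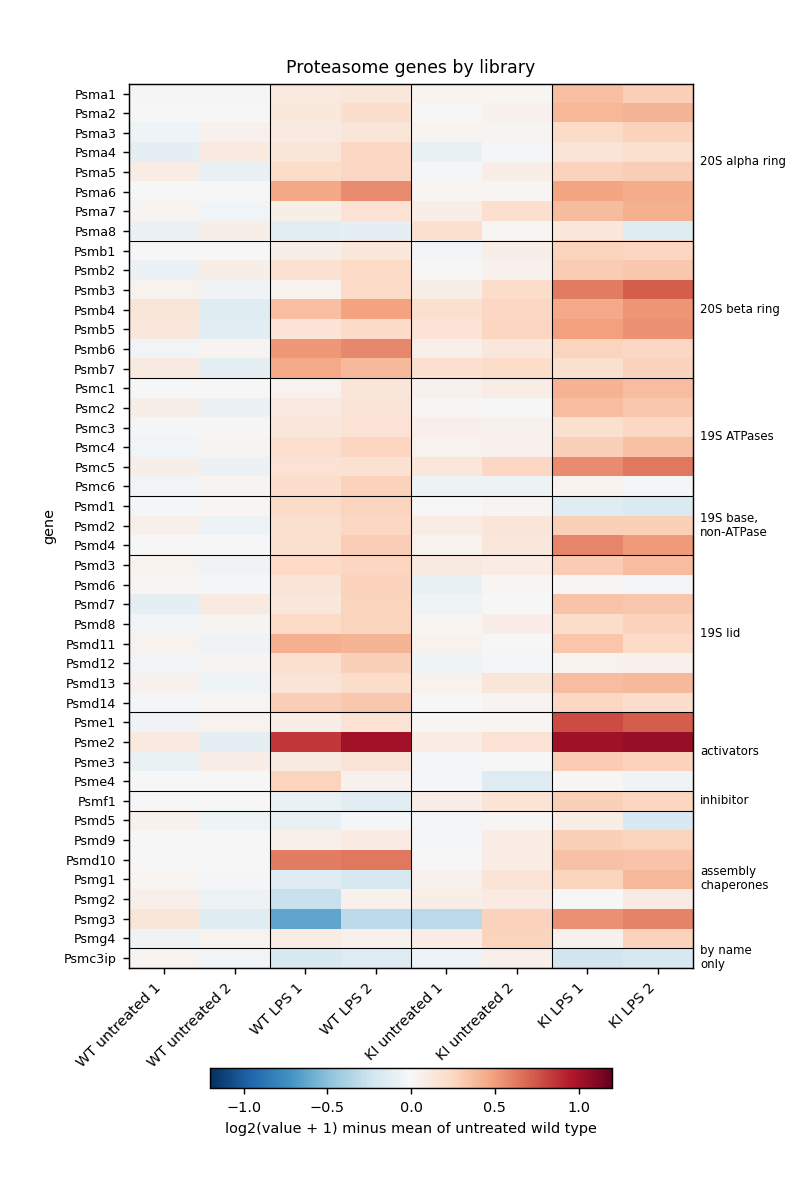
Level of the 45 tested members (rows, ordered by role) in each of the 8 libraries (columns), as log2(value + 1) minus the mean of the 2 untreated wild-type libraries; red is higher, blue lower, WT is wild type and KI knock-in. Most rows are red in both LPS groups on the deposited scale, Psme2 most deeply, while Psmd1 and Psmg3 have opposite colours in the 2 LPS groups.

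Between the libraries labelled knock-in with LPS and the untreated knock-in, 34 members were higher and 1 was lower, where 28.5% and 28.3% of all tested genes were, 56.7% in all. The median log2 change was 0.24 (all genes 0.016). Higher were 13 of 15 core genes (median 0.26), 13 of 17 genes of the 19S particle (0.24), 3 of 4 activators (0.52), the inhibitor and 4 of 7 chaperones (0.23). Here the scaling mattered less: 30 to 34 members were higher and 1 lower under each of the 4 scalings. Of all tested genes 24% to 29.7% were higher and 27.3% to 31.8% lower under these scalings. Of the 34 calls 26 held under every alternative, and none changed sign.

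The PA28 pair led this comparison. Psme1 was at 173 and 175 in the untreated knock-in and 296 and 285 in the libraries labelled knock-in with LPS (0.73 ± 0.049 (SE), adjusted p = 6.15e-12). Both were far above every other library of the series. Psme2 was at 82.9 and 88.1 and 159 and 162 (0.90 ± 0.065 (SE), adjusted p = 2.40e-11), levels close to those of wild type with LPS on the deposited scale. Psme3 was at 93.9 and 94.1 and 117 and 115 (0.30 ± 0.055 (SE), adjusted p = 6.56e-05), and Psme4, at 89.9 and 82.3 and 92.6 and 88.9, was not called (0.076 ± 0.062 (SE), adjusted p = 0.306).

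Psmb3, a noncatalytic beta subunit, was at 53.9 and 59.8 untreated and 79.4 and 85.3 with the LPS label (0.53 ± 0.067 (SE), adjusted p = 4.10e-07). Psmd4, the ubiquitin receptor of the 19S base, was at 97.2 and 103 and 142 and 135 (0.46 ± 0.053 (SE), adjusted p = 9.46e-08). Psme1, Psmb3, Psmd4 and Psmd9 hold the interferon-stimulated response element match printed above; Psmd9, a chaperone of the 19S base, was at 22.9 and 24.8 and 28.5 and 28.1 (0.24 ± 0.072 (SE), adjusted p = 0.00703). Psmg4, the fifth member with a match, was at 12.1 and 13.8 and 11.7 and 13.9 and was not called (-0.02 ± 0.098 (SE), adjusted p = 0.877). All members with a match but Psmg4 were thus called higher here, where 34 of the 45 tested members were. In wild type with LPS, Psme1 and Psmd4 were called higher, and Psmb3, Psmd9 and Psmg4 were not called. A link between match and change was not tested. Psma6 went from 88.8 and 88.9 to 122 and 119 (0.43 ± 0.051 (SE), adjusted p = 1.21e-07), a step similar in size to that in wild type. Psmg3 was at 6.25 and 9.93 and 12.2 and 12.7 (0.59 ± 0.146 (SE), adjusted p = 0.00141), with untreated libraries that were far apart. Without the first of them the change was 0.30 and not called, and the call was lost with DESeq2 too.

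Of the constitutive catalytic genes, Psmb5 was at 69.3 and 74.1 untreated and 87.3 and 90.7 with the LPS label (0.31 ± 0.069 (SE), adjusted p = 5.26e-04). Psmb6 went from 153 and 161 to 176 and 173 (0.15 ± 0.048 (SE), adjusted p = 0.00907), and Psmb7, at 77.8 and 79.3 against 78.0 and 82.4, was not called (0.03 ± 0.061 (SE), adjusted p = 0.699) and its groups overlapped. The member that was lower was Psmd1, the large scaffold subunit of the 19S base, at 127 and 129.7 untreated and 115 and 113 with the LPS label (-0.17 ± 0.048 (SE), adjusted p = 0.00426). Its exons share 301 bases with Gm21972 on the same strand.

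Called higher in both genotypes were 26 members, 81.2% of the 32 in wild type and 76.5% of the 34 in the knock-in. With 32 and 34 of the 45 tested members called higher, a large overlap is set by these counts alone. These comparisons share no library, but both take their spread from 1 fit over all 8. Of all tested genes 1174 were called higher in both, 36.7% and 34.6% of the genes called higher in each. Psmd1 and Psmg3 were called in opposite directions, but with DESeq2 neither call of Psmg3 held. Psma8, Psmd5, Psmg2, Psmg4 and Psmc3ip were called in neither. Summed over the 16 core genes, the level was 1212 and 1196 in untreated wild type, 1421 and 1489 with LPS, 1244 and 1297 in the untreated knock-in and 1526 and 1545 in the libraries labelled knock-in with LPS. That sum was 1.21-fold higher in both genotypes on the deposited scale, and 0.984-fold and 1.17-fold without normalization factors. The 19S sum was 1.17-fold higher in both, or 0.950-fold and 1.13-fold without factors.

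**Figure D2:**
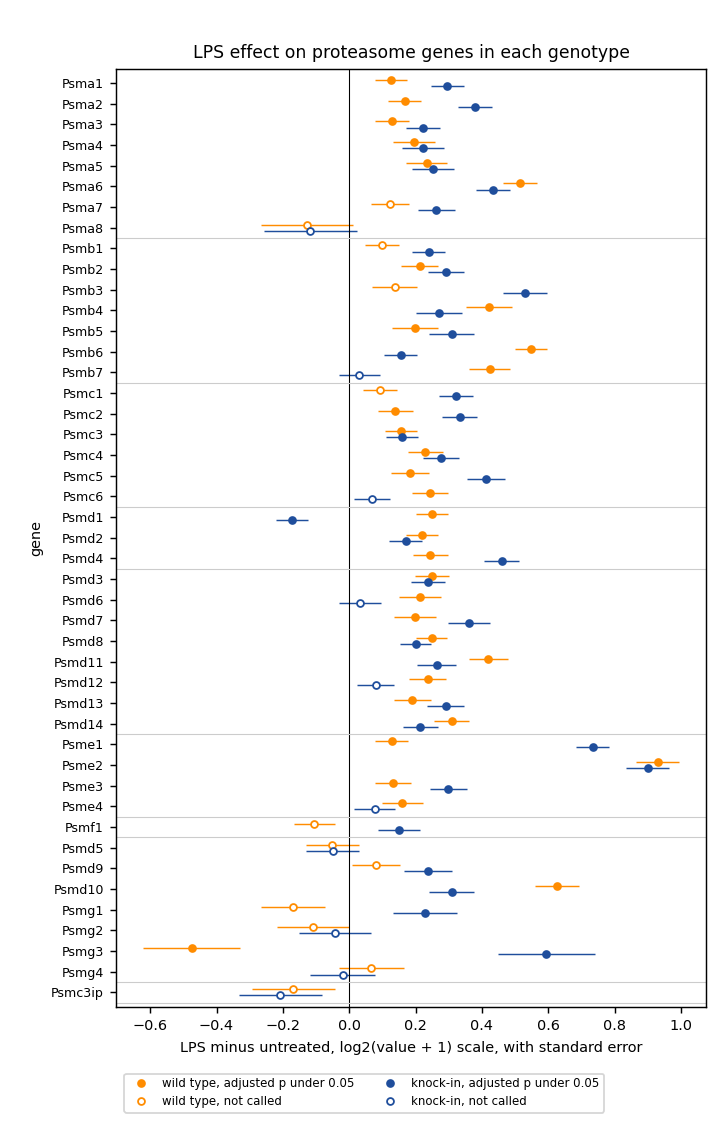
Log2 change from untreated to LPS-labelled libraries of each tested member (rows) in wild type (orange) and knock-in (blue). Bars are 1 standard error from the limma fit on 2 libraries a group, and filled points passed an adjusted p of 0.05. In the knock-in the 2 groups compared also differ in sex. Most points lie between 0 and 0.5 in both genotypes, and Psme1, Psmd1 and Psmg3 show the widest gaps between the colours.

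Without LPS, no proteasome gene differed between knock-in and wild type by the limma fit, and 0.00839% of all tested genes were called higher and 0% lower. The median log2 change of the members was 0.036 (all genes -0.0024), 8 members had an unadjusted p under 0.05, and edgeR and DESeq2 on the recovered reads called 0 members too. The smallest p-values were those of Psmb7, Psmc5, Psmb4, Psmb5 and Psma7. Psmb7 was at 73.2 and 63.3 in wild type and 77.8 and 79.3 in the knock-in (0.20 ± 0.061 (SE), adjusted p = 0.177), and Psmb4 at 90.6 and 73.7 and 93.7 and 97.6 (0.22 ± 0.069 (SE), adjusted p = 0.188). For Psmb5 the values were 67.9 and 55.9 against 69.3 and 74.1 (0.21 ± 0.069 (SE), adjusted p = 0.201), for the ATPase Psmc5 76.8 and 69.8 against 80.3 and 87.0 (0.19 ± 0.057 (SE), adjusted p = 0.181) and for the alpha subunit Psma7 81.8 and 77.9 against 84.2 and 92.0 (0.14 ± 0.057 (SE), adjusted p = 0.285).

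In each of these 5 the second wild-type library was the lowest of the 4. Without the first wild-type library, which leaves wild type with 1 library assumed to vary like the others, 6 members were called higher in the knock-in, namely Psmb4, Psmb5, Psmb7, Psmc5, Psmd2 and Psme2, at log2 changes of 0.18 to 0.37. In that fit 2.21% of all tested genes were called higher and 1.85% lower, against 0.00839% and 0% with all libraries. Psmb6 (0.10 ± 0.048 (SE), adjusted p = 0.366), Psme1 (0.02, adjusted p = 0.891), Psme2 (0.13, adjusted p = 0.38), Psme3 (-0.0081, adjusted p = 0.961) and Psme4 (-0.089, adjusted p = 0.541) were not called in the full fit.

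Among LPS-labelled libraries, the knock-in exceeded wild type for 18 members and was below it for 9, where 38.5% and 36.8% of all tested genes were called so, 75.4% in all. The median was 0.10 (all genes 0.023). The roles were mixed: of the core genes 7 were higher and 2 lower of 15, of the 19S genes 5 and 5 of 17, of the activators 2 and 1 of 4, and of the chaperones 3 and 1 of 7. With quantile normalization 30 were higher and 2 lower (43.0% and 31.8% of all genes), and without normalization factors 34 and 1 (53.4% and 25.7%); the all-gene median was then 0.085 and 0.23. Of the calls on the deposited scale, 14 of 18 higher and 1 of 9 lower (Psmd1) held under every alternative.

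Higher with the knock-in label was Psmg3, at 12.2 and 12.7 against 4.82 and 6.29 in wild type (1.04 ± 0.146 (SE), adjusted p = 8.24e-07). Psme1 stood at 296 and 285 against 181 and 195 (0.63 ± 0.049 (SE), adjusted p = 4.55e-11) and Psmb3 at 79.4 and 85.3 against 52.8 and 60.0 (0.54 ± 0.067 (SE), adjusted p = 1.30e-07). All 3 were well clear of the wild-type range. The alpha ring chaperone Psmg1 stood at 11.3 and 12.4 against 8.24 and 7.91 (0.50 ± 0.097 (SE), adjusted p = 6.43e-05), the ATPase Psmc5 at 109 and 114 against 82.9 and 83.4 (0.42 ± 0.057 (SE), adjusted p = 5.66e-07), and Psmf1, which encodes the proteasome-binding PI31, at 44.1 and 43.3 against 33.9 and 32.9 (0.38 ± 0.063 (SE), adjusted p = 9.00e-06). Psmb5 was higher by a smaller step (0.33 ± 0.069 (SE), adjusted p = 1.69e-04), and so was Psme3 (0.16 ± 0.055 (SE), adjusted p = 0.012).

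Lower with the knock-in label were Psmd1, at 115 and 113 against 149 and 153 (-0.41 ± 0.048 (SE), adjusted p = 6.55e-08), and Psmb6, at 176 and 173 against 209.7 and 219 (-0.29 ± 0.048 (SE), adjusted p = 7.81e-06). Psmd10, at 32.2 and 32.1 against 38.9 and 39.4, was lower too (-0.28 ± 0.067 (SE), adjusted p = 6.98e-04); it is X-linked, and the cells differed in sex. Psmc6 (-0.23), an ATPase, and the lid genes Psmd6 (-0.21) and Psmd12 (-0.19) followed on the log2 scale, with Psmb7 (-0.19) and Psme4 (-0.17). Psmb6, Psmb7, Psmd6, Psmd11, Psmd12 and Psme4 changed sign in at least 1 other scaling. Psme2 was not called (0.10 ± 0.065 (SE), adjusted p = 0.163). Its change reached 0.33 among the alternatives, and it was called higher in 3 of 19 of them.

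The change from untreated to LPS-labelled libraries differed between the genotype labels for 15 members, by the interaction term. In the knock-in 11 were higher and 4 lower, where 31.8% and 31.8% of all tested genes were, 63.7% in all. Sex, animal and label cannot be told apart in this term. The median of the term was 0.027 (all genes 0.013). The partners of the PA28 ring parted: Psme1 differed by 0.61 ± 0.070 (SE), adjusted p = 6.34e-08, while Psme2 did not pass (-0.03 ± 0.092 (SE), adjusted p = 0.795). The term of Psme2 depended on the scaling. It changed sign in 5 of 18 alternatives and reached 0.22, with a lowest adjusted p of 0.0394 (limma), which is under the threshold. The largest term was that of Psmg3 (1.07 ± 0.207 (SE), adjusted p = 9.53e-05); below Psme1 came Psmg1 (0.40), Psmb3 (0.39), Psmf1 (0.25) and Psmc5 (0.23). The 4 lower were Psmd1 (-0.42 ± 0.068 (SE), adjusted p = 1.08e-05), Psmb6 (-0.39), Psmb7 (-0.39) and Psmd10 (-0.32).

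Psmb5 (0.11 ± 0.097 (SE), adjusted p = 0.326), Psme3 (0.17, adjusted p = 0.0647) and Psme4 (-0.083, adjusted p = 0.421) were not called in this term. None of the 8 lid genes passed. The terms of Psmb3, Psme1, Psmg3 and Psmd1 were called under every alternative. The counts moved to 23 higher and 3 lower with quantile normalization (35.0% and 26.5% of all genes), 29 and 1 without normalization factors (48.5% and 20.2%) and 9 and 7 with median-of-ratios scaling (30.3% and 33.3%). Leaving out the first untreated knock-in library left 4 higher (28.8% of all genes), and leaving out the first LPS library of wild type left 6 (29.8%).

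**Figure D3:**
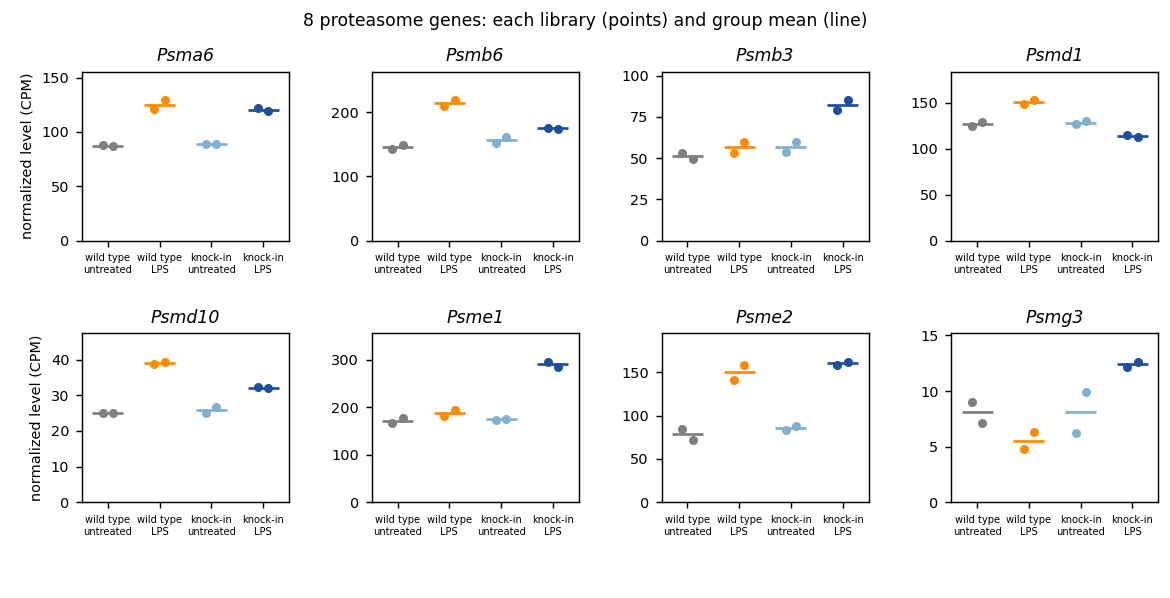
Normalized level (CPM) of 8 members in each library (points) with the mean of 2 (line), by group; every axis starts at 0. Psma6 and Psme2 are high in both LPS groups, Psmb6 and Psmd10 are highest in wild type with LPS, Psme1 and Psmb3 stand out in the libraries labelled knock-in with LPS, and Psmd1 and Psmg3 move in opposite directions.

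The immunoproteasome genes, which replace Psmb5, Psmb6 and Psmb7, were highest in the libraries labelled knock-in with LPS. Without LPS the genotypes did not differ past the threshold in Psmb8 (0.15 ± 0.053 (SE), adjusted p = 0.218), Psmb9 (0.17 ± 0.071 (SE), adjusted p = 0.294) or Psmb10 (0.17 ± 0.050 (SE), adjusted p = 0.177). In wild type, Psmb8 was at 114 and 112 untreated and 109.8 and 118 with LPS (0.0092 ± 0.053 (SE), adjusted p = 0.895), and Psmb9 at 44.9 and 39.0 and 39.2 and 44.7 (adjusted p = 0.995), so neither was called on the deposited scale. Under other scalings both could be called lower. Psmb8 reached -0.28 (lowest adjusted p = 3.61e-05, limma) and Psmb9 -0.29 (lowest adjusted p = 8.23e-04, limma). Psmb10 rose from 73.3 and 72.8 to 96.9 and 98.2 (0.41 ± 0.050 (SE), adjusted p = 1.67e-07). Compared with the untreated knock-in, all 3 were higher in the libraries labelled knock-in with LPS. Psmb8 went from 121 and 131 to 251 and 259.7 (1.01 ± 0.053 (SE), adjusted p = 4.44e-14), Psmb9 from 45.2 and 49.3 to 106 and 108 (1.16 ± 0.071 (SE), adjusted p = 9.69e-13) and Psmb10 from 80.4 and 84.3 to 146 and 142 (0.80 ± 0.050 (SE), adjusted p = 2.07e-12). The interaction term was called for each (Psmb8 1.00, Psmb9 1.16, Psmb10 0.38). Psmb9 shares 212 exon bases with Tap1 on the opposite strand.

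As ratios of normalized levels (not per length), Psmb8 to Psmb5 was 1.68 and 2.00 in untreated wild type, 1.59 and 1.63 with LPS, 1.74 and 1.77 in the untreated knock-in and 2.87 and 2.86 in the libraries labelled knock-in with LPS. Psmb9 to Psmb6 was 0.314 and 0.262, then 0.187 and 0.204, then 0.296 and 0.307, then 0.601 and 0.625 in the same order. Psmb10 to Psmb7 was 1.00 and 1.15, 1.04 and 1.10, 1.03 and 1.06, and 1.87 and 1.72. In all 3 pairs the libraries labelled knock-in with LPS were the highest, and for Psmb8 to Psmb5 and Psmb9 to Psmb6 both LPS libraries of wild type were below all untreated ones. These ratios within a library do not depend on the scaling factor.

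**Figure D4:**
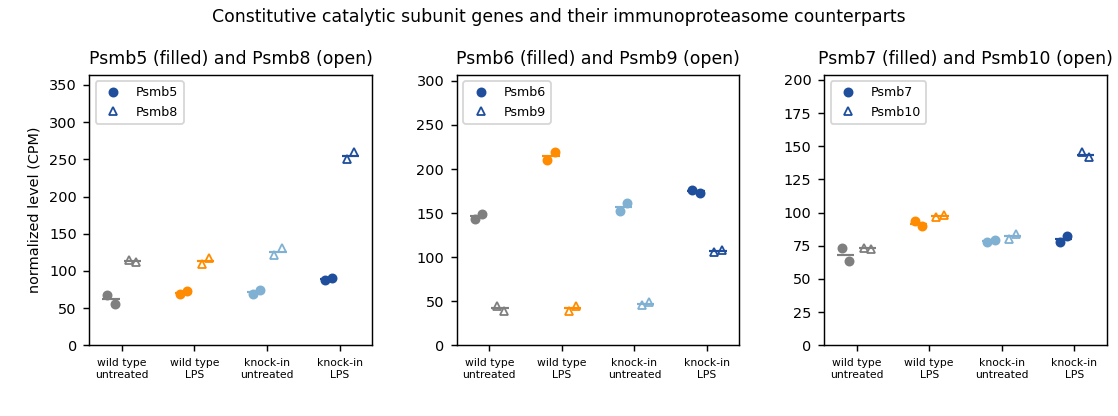
Normalized level (CPM) of the constitutive catalytic genes (filled circles) and their immunoproteasome counterparts (open triangles) in each library, with the group mean as a line; axes start at 0. The triangles are highest in the libraries labelled knock-in with LPS, with Psmb8 near 255, Psmb9 near 107 and Psmb10 near 144, while Psmb6 is highest in wild type with LPS.

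The other pathway genes, 32 with the 3 immunoproteasome genes, were all tested. Their counts and changes are given on the deposited scale alone. Apart from the immunoproteasome genes, they were not examined under other scalings. On that scale the LPS-treated wild-type libraries had normalization factors of 0.878 and 0.866, against 1.02 to 1.07 in the others. In wild type 19 rose with LPS and 4 fell (median 0.19), where 26.8% and 30.7% of all tested genes did (median -0.032). In the knock-in comparison 18 were higher and 7 lower (median 0.16), where 28.5% and 28.3% of all tested genes were (median 0.016). Nfe2l1, which encodes Nrf1, was at 248 and 256 untreated and 382 and 403 with LPS in wild type, and 245 and 252 and 295 and 297 with the knock-in labels (log2 changes 0.64 and 0.25, interaction -0.39 ± 0.065 (SE), adjusted p = 1.41e-05). Nfe2l2, which encodes the antioxidant regulator Nrf2, was at 272 and 296 untreated and 629.6 and 647 with LPS in wild type, and 260.1 and 256 and 289 and 280.2 with the knock-in labels (1.17 and 0.14, interaction -1.03 ± 0.067 (SE), adjusted p = 2.69e-12). Both regulators were called higher in each genotype and the step was larger in wild type. Ddi2, the protease that activates Nrf1, was at 73.7 and 74.5 untreated and 39.8 and 34.8 with LPS in wild type, and 73.3 and 72.5 and 66.6 and 69.7 with the knock-in labels (-0.97, called lower, and -0.095, not called). Exons of Ddi2 share 1749 bases with Rsc1a1 on the same strand.

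Zfand5, a proteasome-binding zinc finger protein, was at 169.7 and 153 untreated and 420.1 and 408 with LPS in wild type, and 165 and 162 and 216 and 212 with the knock-in labels (log2 changes 1.35 and 0.39, both called). Pomp, the chaperone that matures the beta ring, was at 94.6 and 91.6 untreated and 101 and 108 with LPS in wild type, and 96.9 and 95.8 and 112 and 116 with the knock-in labels (0.16 and 0.24, both called, interaction not called, adjusted p = 0.37). Whether so small a step in wild type keeps its sign under other scalings was not examined. Adrm1, a ubiquitin receptor of the 19S base without a Psm name, was higher in both as well (0.56 and 0.32). Txnl1 (0.70 and 0.19), a thioredoxin-like protein bound to the 19S particle, and Nploc4 (0.57 and 0.33), a cofactor of the segregase p97, were higher in both. Vcp, which encodes p97, was called in opposite directions (0.33 and -0.32). By the interaction term, 10 of the 32 were called higher and 15 lower in the knock-in, where 31.8% and 31.8% of all tested genes were.

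**Figure D5:**
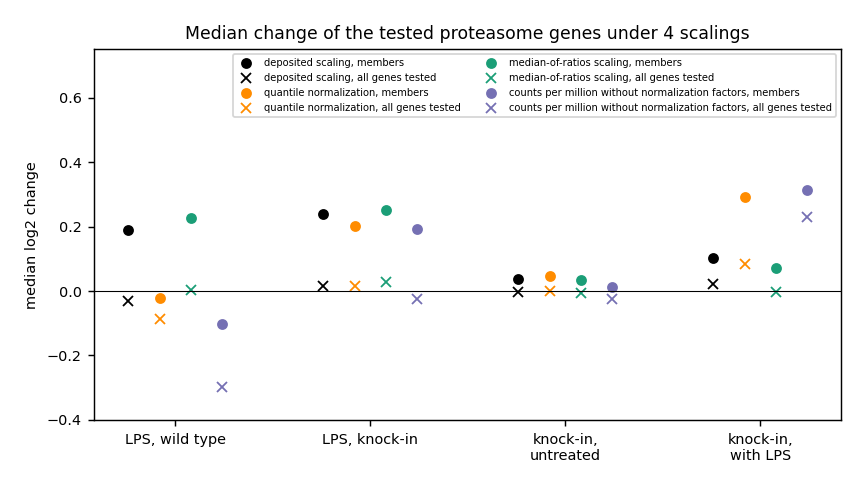
Median log2 change over the 45 tested members (circles) and over all 11919 tested genes (crosses) in 4 comparisons, under the deposited scaling and 3 alternatives (colours). In wild type with LPS the members' median runs from 0.23 to -0.10 and stays above that of all genes under each scaling.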

How the data were processed

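The deposited table holds 1 value per gene and library, made by the authors with TopHat2 2.0.9, bedtools and edgeR on mm9, per the submitters' processing notes. Annotation, counting rule and strand use: not given in the sources used here. The unit, a signal scaled by edgeR normalization factors (a CPM), was read from the deposited values: 100% of them were whole multiples of what 1 read is worth in their library, within 0.001, and 40379258 to 55595160 reads per library were recovered. Counts of zero in all libraries were found for 5996 of 23366 genes.

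Levels were compared with limma 3.58.1 (R 4.3.3) on log2(value + 1), with 4 group means fitted over all 8 libraries, a variance trend and 2-sided moderated tests of 5 comparisons. Genes at 1 or more in at least 2 libraries were tested (11919), with 4 residual and 19.1 prior degrees of freedom and Benjamini-Hochberg adjustment over all of them. The script was tested on simulated data. Alternatives were edgeR 4.0.16 quasi-likelihood and DESeq2 1.42.0 on the recovered reads, other scalings, pseudocounts and filters, a replicate block and leaving out each library.

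Members and lists were chosen with earlier results of these data known. Values by library are given for the called members with the 6 largest changes in each direction and a group mean of at least 5, for Psmb5, Psmb6, Psmb7 and Psme1 to Psme4, for the 5 smallest p-values where fewer were called, and for the immunoproteasome genes, Nfe2l1, Nfe2l2, Pomp and up to 6 further pathway genes. Other genes named for a sentence were chosen after their values were seen. Exon lengths and overlaps came from GENCODE vM21 (GRCm38), and promoter windows from RefSeq (GRCm38.p6).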

Additional observations from a re-analysis of the deposited data

Results flagged for a closer look

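For 15 members the LPS effect in the libraries labelled knock-in differed from that in wild type by the interaction term of the limma fit (Benjamini-Hochberg adjusted p under 0.05), where 63.7% of all tested genes did. Positive differences, on the log2 scale, were those of Psma1 (0.17), Psma2 (0.21), Psmb3 (0.39), Psmc1 (0.23), Psmc2 (0.19), Psmc5 (0.23), Psmd4 (0.22), Psme1 (0.61), Psmf1 (0.25), Psmg1 (0.40) and Psmg3 (1.07). Negative ones were those of Psmb6 (-0.39), Psmb7 (-0.39), Psmd1 (-0.42) and Psmd10 (-0.32). Genotype label, sex and animal cannot be told apart in this term, and Tnf was at 48.5 and 48.7 in the libraries labelled knock-in with LPS, against 3915 and 4039 in wild type with LPS.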

How the results depend on the processing

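Of 1511 recomputations of 79 values of named genes, 1394 kept their direction and side of the threshold, 64 kept the direction and lost the call, 15 gained one and 38 changed sign, 14 of these for called values. The members higher with LPS in wild type were 6 with quantile normalization and 4 without normalization factors, and 20 to 31 with a library left out (20 without the second LPS library of wild type). Those lower were 11 and 19 under these scalings, 0 with DESeq2, 0 without a filter and 0 to 1 with a library left out (0 without the first wild-type library of either treatment). Between genotypes without LPS, 0 to 6 members were higher with a library left out. With LPS, 30 and 34 were higher and 2 and 1 lower with quantile normalization and without factors. For the interaction, 23 and 29 were higher under these scalings and 4 to 11 with a library left out (6 without the first LPS library of wild type, 4 without the first untreated knock-in library, 7 without the first library labelled knock-in with LPS). Lower were 8 with edgeR, 7 with median-of-ratios scaling, 1 without factors and 4 to 6 with a library left out. The cause of these shifts was not tested.

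Signs changed on the log2 scale as follows. In wild type with LPS, quantile normalization gave Psme1 -0.26, Psme3 -0.14, Psme4 -0.11 and Psmb8 -0.27, and no factors gave Psmb5 -0.094, Psme1 -0.17, Psme3 -0.16, Psme4 -0.13 and Psmb8 -0.28. Psmb9 was 0.031 with edgeR, 0.029 with DESeq2 and 0.037 with median-of-ratios scaling. In the knock-in comparison Psmb7 was -0.029 and -0.016 under the first 2 scalings, and without LPS Psme1 between genotypes was -0.0046 without factors. With LPS between genotypes, quantile normalization gave Psmb6 0.032, Psmb7 0.0067 and Psme4 0.035, and no factors gave Psmb7 0.033, Psme4 0.050, Psmd6 0.0054 and Psmd12 0.032. The interaction was 0.20 and 0.22 for Psme2 and 0.12 and 0.16 for Psme4 under quantile normalization and without factors.

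With a library left out, ranges that crossed 0 were -0.042 to 0.060 (Psmb8) and -0.10 to 0.099 (Psmb9) in wild type with LPS, -0.0092 to 0.069 (Psmb7) in the knock-in comparison, -0.022 to 0.061 (Psme1) and -0.090 to 0.074 (Psme3) between untreated genotypes, and -0.027 to 0.25 (Psmb5), -0.15 to 0.087 (Psme2) and -0.19 to 0.023 (Psme4) for the interaction. Replicate numbers share only a number: deviations of same-numbered libraries correlated at -0.084 to 0.089. With the replicate number as a block, 32 members were higher and 1 lower in wild type with LPS, 33 and 1 in the knock-in comparison, 0 and 0 between untreated genotypes, 19 and 9 with LPS and 11 and 4 for the interaction, where Psmg1 lost its call in the knock-in comparison (log2 change 0.23, adjusted p = 0.0542 with the block and 0.0490 without it, limma) and Psmd7 gained one with LPS between genotypes (0.14, adjusted p = 0.0385 and 0.0530). The block changed no other call of a member. The interaction could not be fitted on only the groups compared, since it uses all 4. An alternative chosen after seeing the data, the untreated genotypes without the libraries labelled knock-in with LPS, called 0 members in either direction. Both the spread between 2 libraries a group and, for members of low count such as Psmg3, counting error limit what can be seen; they were not compared.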
